A study of Rattus norvegicus with 6 samples.

Results

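The 36 genes described here encode voltage-gated sodium and calcium channels, and they were taken by symbol from the 33455 genes of the deposited count table (sodium channel symbols Scn with a number and a or b, and all symbols that begin with Cacn). They comprise 12 sodium channel genes, of which 8 are pore-forming and 4 are beta subunits, and 24 calcium channel genes, of which 9 are pore-forming, 4 are alpha2delta, 4 are beta and 7 are gamma subunits. Expression was measured by RNA-seq in spinal cord tissue of about 5 mm3 from the lesion centre of wild-type Norway rats with a contusion at segment T9. There were 3 libraries from Piezo Gel+US animals, which received ultrasound and the material the labels call Piezo Gel, and 3 from Gel+US animals, which received ultrasound and the material called Gel. Ultrasound in both groups ran at 100 Hz and 1.0 W/cm2 for 10 min a day over 4 weeks. Both groups were injured, so no value here describes intact cord, and the sources used here give no strain, sex or age. Libraries held 17212653 to 21436820 counts. In a tissue piece of mixed cells, fewer cells of a type and less RNA per cell cannot be told apart.

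Voltage-gated sodium channels carry the rapid inward current that starts and propagates action potentials, and their beta subunits set gating, surface delivery and cell adhesion. Voltage-gated calcium channels turn depolarisation into calcium entry, which triggers transmitter release, gene regulation and, through the T type, rhythmic firing at low voltage. In spinal cord the pore-forming genes are known mainly from neurons and their axons, while some members are also known from glia, muscle and other cells. The alpha2delta and beta subunits bring calcium channel pores to the membrane, and several gamma subunits act chiefly as partners of AMPA-type glutamate receptors.

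Levels spanned several orders of magnitude when counts were scaled to gene length and library total (TPM). By mean TPM over the 6 libraries high levels were those of Scn7a with 224, Cacng7 with 183, Scn4b with 77.9 and Cacng4 with 53.0. Among the calcium channel pores Cacna1a led with 29.8 TPM and the next 7 lay close together, between 9.41 for Cacna1h and 15.7 for Cacna1g. At the other end Scn10a and Scn11a, the sodium channels of pain-sensing ganglion neurons, had 0 to 10 counts per library, Cacna1f, the L type pore of the retina, had 0 to 10, and the muscle gamma subunits Cacng1 and Cacng6 had 0 to 5. These 5 genes were below the count filter and were not tested, which left 31 members. The Scn11a row overlaps an antisense gene, LOC116907920, that carried 4823 counts in all, against 19 for Scn11a. Whether this lowered the Scn11a counts was not tested, as the strand setting of the counting is not known here. Cacna2d4 and the skeletal muscle sodium channel Scn4a passed the filter at means of 0.299 and 0.751 TPM.

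**Figure D1:**
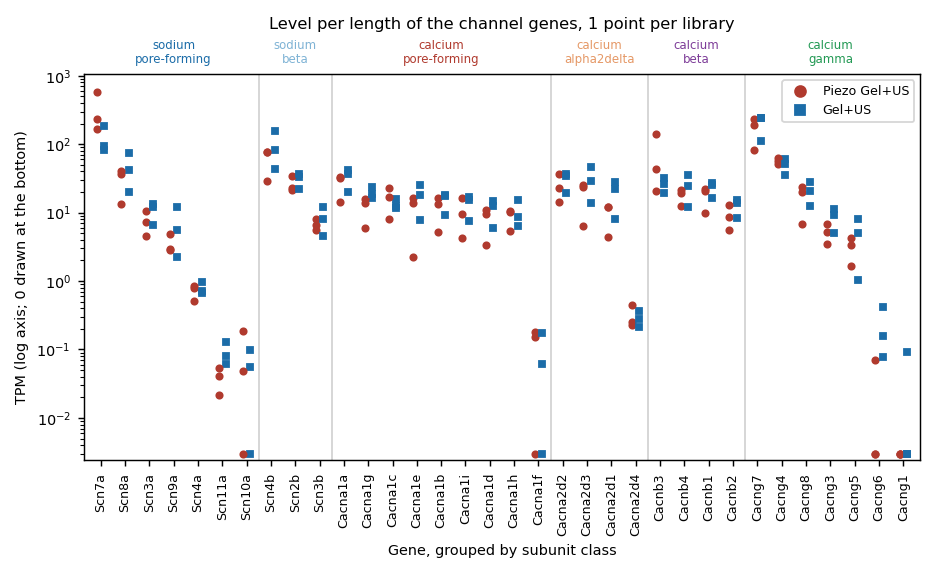
TPM of 34 of the 36 channel genes (log axis) in the 3 Piezo Gel+US libraries (red circles) and the 3 Gel+US libraries (blue squares), grouped by subunit class and ordered by mean level within a class. Most expressed members lie between 1 and 100 TPM in both groups, Scn7a and Cacng7 have most libraries above, and Scn10a, Scn11a, Cacna1f, Cacng1 and Cacng6 lie near 0.

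The symbol rule leaves out 3 rows that the deposited table lists under a locus number. LOC116901467 is described there as a type 1 sodium channel alpha-like gene and LOC116901461 as a type 2 alpha-like gene, and a further row, described as like the skeletal muscle L type pore, had 0 to 3 counts per library. LOC116901467 was abundant, with 165, 85.6 and 203 CPM (counts scaled to the library total) in Piezo Gel+US replicates 1 to 3, against 178, 95.4 and 378 CPM in Gel+US replicates 1 to 3. LOC116901461 had 35.6, 29.3 and 54.8 CPM in Piezo Gel+US, against 78.7, 31.8 and 75.2 CPM in Gel+US. Their log2 fold changes were -0.52 (95% interval -1.82 to 0.78) and -0.63 (95% interval -1.58 to 0.32), and without Gel+US replicate 3 the first was 0.15. Both lie among sodium channel members in the table's coordinates. Scn3a, Scn9a, Scn7a and these 2 rows share 1 stretch from 42951022 to 44198091. Scn10a and Scn11a share another from 110850399 to 111070628, and the beta subunit genes Scn2b and Scn4b are neighbours within 33.3 kb. The build is not named, and none of the table's gene identifiers (0 of 33455) occurs in the RefSeq gene table of GRCr8, the Norway rat assembly. Coordinates differ as well, since Scn8a starts at 262051839 in the table while its GRCr8 promoter window lies at chr7:133860977-133861226. The positions, gene models and lengths used here are thus those of another annotation, and its assembly and the species of that assembly are not known here. The pore genes of 1 such stretch are close copies of each other, so reads common to them may have been lost or shared in counting.

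Across the 31 tested members the balance was towards lower levels in Piezo Gel+US, with a few large exceptions. Of these, 25 had a log2 fold change below 0 and 6 above, against 52.9% below 0 among all 17066 genes tested. The median was -0.33 for the members and -0.02 for all genes tested, and named members ranged from -0.97 for Cacna2d1 to 1.53 for Cacnb3. No member passed the edgeR quasi-likelihood test with Benjamini-Hochberg adjustment over all genes (0 of 31, adjusted p = 0.994 for each), as none of all genes did (0%). At an unadjusted p below 0.05 the same test gave 0 of the 31 members, against 2.1% of all genes tested (0.721% lower and 1.38% higher). DESeq2 gave 3 of the 31, Scn7a and Cacnb3 among them, against 2.81% of the 23195 genes it tested (572 of the 17066 genes tested by edgeR). For limma-voom it was 8 of the 31, against 14%. With the replicate number as a block, edgeR gave 8 of the 31 members at that level, against 5.78% of all genes, and 0 after adjustment.

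Libraries of equal replicate number were also compared, although the labels do not say what a number shares. Members lower in Piezo Gel+US in all 3 pairs numbered 15 of the 31 tested, against 14.7% of all genes tested. Members higher in all 3 pairs numbered 2 of the 31, Scn7a among them, against 14.3%. The 15 comprised 2 sodium channel pores, 1 sodium channel beta subunit, 6 calcium channel pores, and 2 each of the alpha2delta, beta and gamma subunits. The group ranges separated for 1 of the 31 tested members, Cacna1g, on the lower side, against 2.73% of all genes tested. On the higher side they separated for 0 of the 31, against 4.08%.

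**Figure D2:**
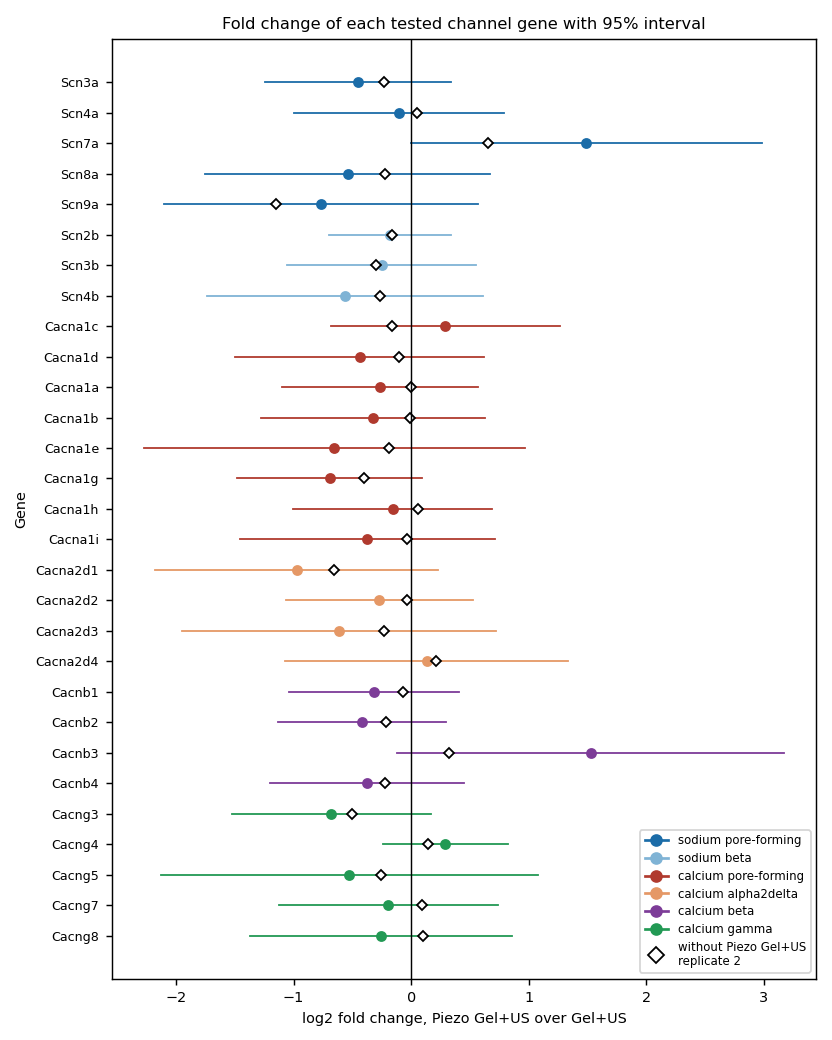
Log2 fold change of 29 of the 31 tested channel genes, Piezo Gel+US over Gel+US (n = 3 each), as a filled point with its 95% interval, coloured by subunit class, and the fold change without Piezo Gel+US replicate 2 as an open diamond. Most points lie left of 0, every interval reaches 0, and most diamonds lie closer to 0 than the points, among them those of Scn7a and Cacnb3.

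The sequence before the start of 4 members is shown because these members represent the opposite patterns across libraries and because 1 of them carries a repeated motif of a neuronal gene repressor. The 250 bases are those before the gene start in the GRCr8 Norway rat assembly of RefSeq, written on the gene's strand. Members were matched to it by symbol, since the deposited table uses another annotation, and 24 of the 36 members had such a sequence. Capitals mark the GC box GGGCGG on either strand, which 30.5% of 33469 promoters of this length held and 13 of the 24 members did. Scn7a lies at chr3:71846285-71846534 on the minus strand, Cacnb3 at chr7:131666301-131666550 on the plus strand and Scn8a at chr7:133860977-133861226 on the plus strand.
Scn7a: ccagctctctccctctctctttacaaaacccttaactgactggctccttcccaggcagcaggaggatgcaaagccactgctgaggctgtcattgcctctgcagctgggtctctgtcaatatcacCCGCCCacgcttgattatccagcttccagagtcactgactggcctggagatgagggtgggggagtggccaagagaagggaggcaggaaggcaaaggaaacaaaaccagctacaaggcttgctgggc
Cacnb3: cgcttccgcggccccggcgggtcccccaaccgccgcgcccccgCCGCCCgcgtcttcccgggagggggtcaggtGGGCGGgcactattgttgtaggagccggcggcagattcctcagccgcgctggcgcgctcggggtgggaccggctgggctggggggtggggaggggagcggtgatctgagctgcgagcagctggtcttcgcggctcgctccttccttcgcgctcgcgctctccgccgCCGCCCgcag
Scn8a: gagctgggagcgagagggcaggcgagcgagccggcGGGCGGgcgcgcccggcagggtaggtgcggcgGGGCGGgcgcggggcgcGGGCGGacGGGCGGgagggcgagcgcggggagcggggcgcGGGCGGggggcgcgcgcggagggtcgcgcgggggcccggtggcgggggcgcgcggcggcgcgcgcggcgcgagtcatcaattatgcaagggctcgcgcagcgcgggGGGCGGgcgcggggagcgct
Scn7a and Cacnb3, both highest in Piezo Gel+US replicate 2, had unlike windows, with 56% and 76.4% of bases G or C, 2 and 35 CpG steps, and 1 and 3 GC boxes. Scn8a, which that library held lowest, had 86% G or C, 53 CpG steps and 6 GC boxes, against a median of 51.2% G or C over all promoters.

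Cacng3 carried the left part of the RE1 element, TTCAGCACC, at 2 places in its window, and no other of the 24 members with a sequence did. RE1 is bound by the repressor REST, which keeps neuronal genes silent outside neurons. The letters were searched on both strands and occurred in 0.305% of 33469 promoters. The window lies at chr1:186632312-186632561 on the plus strand of GRCr8, and capitals mark the 2 copies.
Cacng3: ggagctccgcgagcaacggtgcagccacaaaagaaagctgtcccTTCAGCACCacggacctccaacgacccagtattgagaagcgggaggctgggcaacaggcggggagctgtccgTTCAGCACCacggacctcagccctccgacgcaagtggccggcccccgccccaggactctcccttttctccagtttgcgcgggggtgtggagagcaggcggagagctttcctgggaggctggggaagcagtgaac
Cacng3 was among the members lower in each pair, and a match in letters is a description of the window, not of binding. The TATA box TATAAA, searched on both strands, occurred in none of the 24 members and in 12.9% of all promoters.

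Among the sodium channel pores Scn7a stood apart in both its level and its direction. Scn7a encodes a sodium channel relative that senses extracellular sodium rather than driving action potentials, and it is known from Schwann cells and other glia. It had 480, 1849 and 638 CPM in Piezo Gel+US replicates 1 to 3, against 259, 578 and 219 CPM in Gel+US replicates 1 to 3. Its promoter was the least rich in CpG steps of the 4 shown. Every Piezo Gel+US library was above its partner of equal number, by 1.85, 3.20 and 2.92 times, yet the ranges overlapped, since Piezo Gel+US replicate 1 lay below Gel+US replicate 2. Scn7a averaged 989 ± 749 CPM in Piezo Gel+US and 352 ± 197 CPM in Gel+US (SD, n = 3 each), a log2 fold change of 1.49 (95% interval -0.0044 to 2.98, edgeR adjusted p = 0.994). Without Piezo Gel+US replicate 2 the log2 fold change was 0.66. In the block fit it was 1.37 with an unadjusted edgeR p of 0.00136 and an adjusted p of 0.855. Of the summed TPM of the 8 sodium channel pore members, Scn7a made up 77.4%, 96.1% and 80.9% in Piezo Gel+US, against 59.9%, 85.8% and 45.3% in Gel+US. With the type 1 and type 2 alpha-like rows added to the sum, its share was 61.8%, 91.8% and 64.6% in Piezo Gel+US, against 41.2%, 74.9% and 26.2% in Gel+US.

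The neuronal and sensory sodium channel pores lay on the lower side. Scn8a, the main sodium channel of mature nodes of Ranvier and axon initial segments, had 148, 59.8 and 153 CPM in Piezo Gel+US, against 162, 87.7 and 275 CPM in Gel+US (log2 fold change -0.54 with a 95% interval of -1.75 to 0.67). It was lower in each pair, and Gel+US replicate 3 was the highest library. Scn3a, a neuronal pore prominent in development, had 29.6, 19.7 and 40.0 CPM in Piezo Gel+US, against 51.0, 28.0 and 43.0 CPM in Gel+US (log2 fold change -0.45 with a 95% interval of -1.24 to 0.34, and -0.23 on leaving out Piezo Gel+US replicate 2). Scn9a, the channel of nociceptors whose loss abolishes pain in people, had 12.9, 22.9 and 11.4 CPM in Piezo Gel+US, against 22.5, 10.5 and 47.3 CPM in Gel+US (log2 fold change -0.77 with a 95% interval of -2.10 to 0.57). Its pairs disagreed, with the replicate 2 pair higher in Piezo Gel+US. Leaving out Gel+US replicate 3 gave -0.055 for Scn8a and -0.079 for Scn9a. Scn4a, the skeletal muscle channel, was scarce, with 27 to 46 counts per library. It ranged from 1.36 to 1.97 CPM in Piezo Gel+US and from 1.504 to 2.30 CPM in Gel+US, and its log2 fold change of -0.10 was 0.059 without Gel+US replicate 1 and 0.048 when Piezo Gel+US replicate 2 was left out.

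The sodium channel beta subunits had a median log2 fold change of -0.21, against -0.49 for the sodium channel pores. Scn4b, which supports resurgent sodium current, had 47.1, 19.3 and 44.0 CPM in Piezo Gel+US, against 48.1, 28.0 and 86.6 CPM in Gel+US (log2 fold change -0.56 with a 95% interval of -1.73 to 0.61). Without Gel+US replicate 3 its log2 fold change was -0.053. Scn2b, a beta subunit bound to the pore by a disulfide bond, had 40.1, 47.6 and 60.0 CPM in Piezo Gel+US, against 59.4, 44.8 and 62.8 CPM in Gel+US (log2 fold change -0.18 with a 95% interval of -0.70 to 0.34, and -0.066 on leaving out Piezo Gel+US replicate 1). Scn3b, its non-covalently bound relative, had 11.3, 14.4 and 15.1 CPM in Piezo Gel+US, against 23.6, 10.1 and 14.9 CPM in Gel+US (log2 fold change -0.25 with a 95% interval of -1.05 to 0.55, and 0.12 without Gel+US replicate 1). The neighbours Scn2b and Scn4b thus differed in which library was lowest, Piezo Gel+US replicate 1 for Scn2b and Piezo Gel+US replicate 2 for Scn4b.

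**Figure D3:**
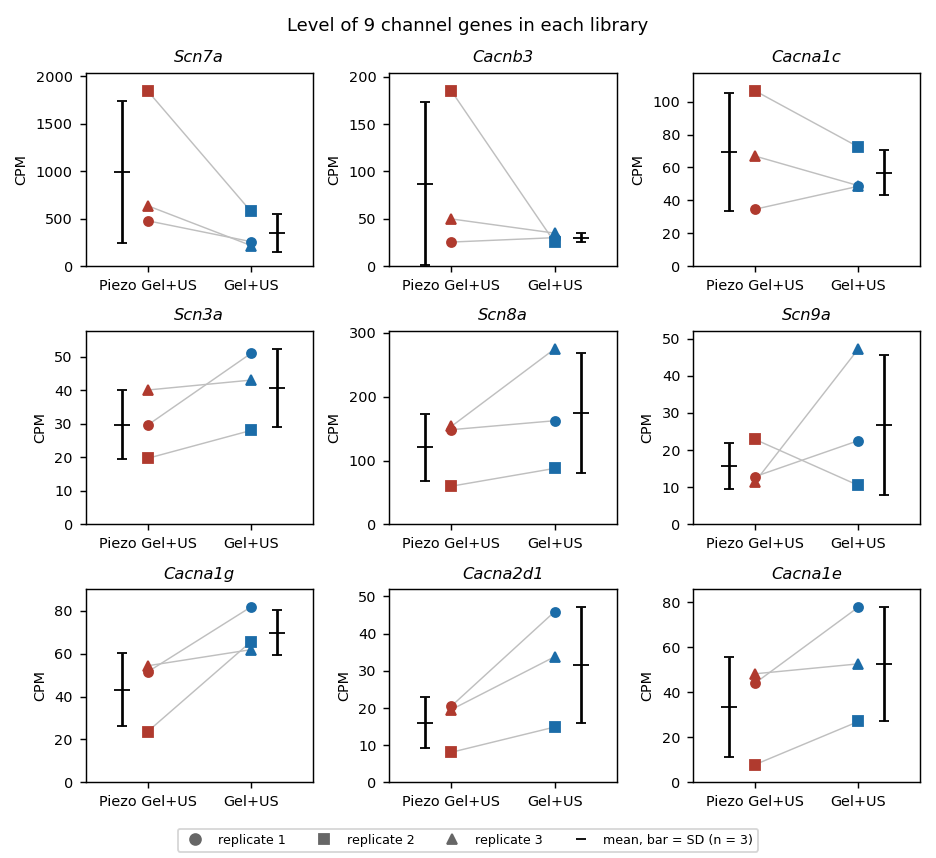
CPM of 9 channel genes in each library, Piezo Gel+US (red) left of Gel+US (blue), with marker shape giving the replicate number, grey lines joining libraries of equal number, and black bars giving mean ± SD (n = 3). Scn7a is higher in Piezo Gel+US in each pair, Cacnb3 is set by Piezo Gel+US replicate 2 at 185 CPM, and Scn3a, Scn8a, Cacna1g, Cacna2d1 and Cacna1e are lower in each pair.

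Of the 8 calcium channel pores tested, 7 had log2 fold changes below 0 and 7 had their lowest level in Piezo Gel+US replicate 2, where 28.4% of all genes tested had theirs. The T type gene Cacna1g supports low-voltage bursting. It had 51.4, 23.6 and 54.3 CPM in Piezo Gel+US, against 81.7, 65.5 and 61.8 CPM in Gel+US. Its groups did not overlap, which held on the lower side for 1 of the 31 tested members, against 2.73% of all genes tested. Cacna1g averaged 43.1 ± 16.9 CPM in Piezo Gel+US and 69.7 ± 10.6 CPM in Gel+US (SD, n = 3 each), a log2 fold change of -0.69 (95% interval -1.48 to 0.093, edgeR adjusted p = 0.994), and -0.40 without Piezo Gel+US replicate 2. The groups of the other T type genes overlapped. Cacna1i had 33.8, 16.4 and 54.4 CPM in Piezo Gel+US, against 52.0, 29.0 and 54.4 CPM in Gel+US, so replicate 3 of both groups nearly coincided (log2 fold change -0.37 with a 95% interval of -1.46 to 0.72). Its value was -0.039 on leaving out Piezo Gel+US replicate 2 and -0.85 on leaving out Piezo Gel+US replicate 3. Cacna1h, prominent in sensory neurons, had 36.7, 21.3 and 36.0 CPM in Piezo Gel+US, against 51.8, 24.7 and 28.3 CPM in Gel+US (log2 fold change -0.16 with a 95% interval of -1.003 to 0.69). That value was 0.24 without Gel+US replicate 1 and 0.056 when Piezo Gel+US replicate 2 was left out.

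The pores that drive transmitter release had like values. Cacna1a, the P/Q type of most fast synapses, had 113, 53.5 and 108 CPM in Piezo Gel+US, against 122, 75.4 and 133 CPM in Gel+US (log2 fold change -0.27 with a 95% interval of -1.10 to 0.57). Cacna1b, the N type blocked by ziconotide in pain therapy, had 57.0, 24.1 and 64.0 CPM in Piezo Gel+US, against 73.9, 41.5 and 66.8 CPM in Gel+US (log2 fold change -0.33 with a 95% interval of -1.28 to 0.63). Both were lower in each pair, and their values on leaving out Piezo Gel+US replicate 2 were -0.0011 and -0.0092. Cacna1e, the R type, had the largest ratio of highest to lowest library among the 8 tested calcium channel pores, 9.85 times in CPM, with 44.0, 7.90 and 48.2 CPM in Piezo Gel+US, against 77.8, 27.0 and 52.6 CPM in Gel+US (log2 fold change -0.65 with a 95% interval of -2.27 to 0.97). Piezo Gel+US replicate 2 was far below the other 5 libraries, and without it the value was -0.19.

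The L type pores split. Cacna1d, the neuronal and endocrine L type that opens at lower voltage, had 36.6, 14.2 and 39.1 CPM in Piezo Gel+US, against 46.0, 24.6 and 51.1 CPM in Gel+US (log2 fold change -0.44 with a 95% interval of -1.49 to 0.62, and -0.11 on leaving out Piezo Gel+US replicate 2). Cacna1c, the L type of heart, smooth muscle and neurons, had 34.6, 107 and 66.9 CPM in Piezo Gel+US, against 48.6, 72.5 and 49.0 CPM in Gel+US (log2 fold change 0.29 with a 95% interval of -0.68 to 1.26). The Cacna1c row overlaps the antisense gene Dcp1b, which carried fewer counts. Piezo Gel+US replicate 2 was the lowest library for Cacna1d and the highest for Cacna1c, whose log2 fold change was -0.17 without it. Of the summed TPM of the 9 calcium channel pore members, Cacna1c made up 7.26%, 35.8% and 12.2% in Piezo Gel+US, against 7.46%, 17.5% and 8.41% in Gel+US. Within each group, replicate 2 had the largest Cacna1c share. The T type genes made up 24.5% to 31.4% in Piezo Gel+US, against 29.5% to 34.2% in Gel+US.

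Among the alpha2delta subunits, the targets of gabapentin-type drugs, Cacna2d1 had the lowest log2 fold change. Cacna2d1, which binds gabapentin and rises in sensory neurons after nerve injury in rodents, had 20.5, 8.10 and 19.6 CPM in Piezo Gel+US, against 45.9, 14.9 and 33.8 CPM in Gel+US. Each Piezo Gel+US library was lower than its partner, at 0.446, 0.544 and 0.579 times its level, and the groups overlapped through Gel+US replicate 2. Cacna2d1 averaged 16.0 ± 6.90 CPM in Piezo Gel+US and 31.5 ± 15.6 CPM in Gel+US (SD, n = 3 each), a log2 fold change of -0.97 (95% interval -2.18 to 0.23, edgeR adjusted p = 0.994), and -0.60 without Gel+US replicate 1. In the block fit it was -0.94, with an unadjusted edgeR p of 0.00233 and an adjusted p of 0.855. Cacna2d3, known from hearing and from pain pathways in mice, had 40.4, 10.9 and 34.9 CPM in Piezo Gel+US, against 42.8, 22.9 and 66.4 CPM in Gel+US (log2 fold change -0.61 with a 95% interval of -1.95 to 0.72). Leaving out Gel+US replicate 3 gave it -0.19, and leaving out Piezo Gel+US replicate 2 gave -0.23. Cacna2d2, the most abundant by length and also a gabapentin binder, had 54.4, 36.4 and 79.9 CPM in Piezo Gel+US, against 83.3, 48.9 and 73.6 CPM in Gel+US (log2 fold change -0.27 with a 95% interval of -1.07 to 0.53). Leaving out Piezo Gel+US replicate 2 gave it -0.036, and leaving out Gel+US replicate 1 gave -0.11. Cacna2d4, the retinal form, stayed between 0.351 and 0.776 CPM in every library, with 7 to 15 counts. Its row overlaps an antisense gene, Lrtm2, that carried more counts, and the strand setting of the counting is not known here.

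The beta subunits, which bind the pore inside the cell, held the largest single departure. Cacnb3 had 25.5, 185 and 49.9 CPM in Piezo Gel+US, against 30.2, 25.2 and 34.9 CPM in Gel+US. Piezo Gel+US replicate 2 was 7.34 times its partner, replicate 3 was 1.43 times its partner, and replicate 1 was below it at 0.846 times. Cacnb3 averaged 86.8 ± 85.9 CPM in Piezo Gel+US and 30.1 ± 4.86 CPM in Gel+US (SD, n = 3 each), a log2 fold change of 1.53 (95% interval -0.12 to 3.17, edgeR adjusted p = 0.994), and 0.32 without Piezo Gel+US replicate 2. Of the summed TPM of the 4 beta subunits Cacnb3 made up 29.5%, 83.2% and 44.0% in Piezo Gel+US, against 29.1%, 34.2% and 28.9% in Gel+US. The remaining beta subunits had fold changes below 0. Cacnb1, the beta subunit of skeletal muscle that neurons also express, had 33.8, 16.5 and 30.1 CPM in Piezo Gel+US, against 36.4, 26.7 and 36.9 CPM in Gel+US (log2 fold change -0.31 with a 95% interval of -1.04 to 0.41). Cacnb2, the main heart form, had 23.9, 17.1 and 33.8 CPM in Piezo Gel+US, against 36.1, 25.2 and 38.6 CPM in Gel+US (log2 fold change -0.42 with a 95% interval of -1.14 to 0.30). Cacnb4, a brain form mutated in the lethargic mouse, had 44.0, 31.0 and 46.3 CPM in Piezo Gel+US, against 53.6, 30.0 and 73.8 CPM in Gel+US (log2 fold change -0.38 with a 95% interval of -1.20 to 0.45). Single libraries moved all 3 values by over 1.5 times, since Cacnb1 had -0.068 and Cacnb2 -0.21 on leaving out Piezo Gel+US replicate 2, and Cacnb4 had -0.053 on leaving out Gel+US replicate 3.

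Of the 5 tested gamma subunits, all AMPA receptor partners, 4 had log2 fold changes below 0 and 1 above, with a median of -0.25. Cacng7, the most abundant, had 92.4, 44.4 and 106 CPM in Piezo Gel+US, against 112, 58.1 and 108 CPM in Gel+US (log2 fold change -0.19 with a 95% interval of -1.12 to 0.74). Cacng4, an AMPA receptor partner, had 41.9, 51.1 and 36.1 CPM in Piezo Gel+US, against 42.9, 28.7 and 33.9 CPM in Gel+US (log2 fold change 0.29 with a 95% interval of -0.24 to 0.82), and limma-voom gave it a value of -0.10. Its highest library was Piezo Gel+US replicate 2, the lowest library of Cacng7. Cacng3, an AMPA receptor partner of the central nervous system, had 4.96, 3.57 and 6.16 CPM in Piezo Gel+US, against 10.3, 5.17 and 8.02 CPM in Gel+US (log2 fold change -0.68 with a 95% interval of -1.53 to 0.17, and -0.43 on leaving out Gel+US replicate 1), and was lower in each pair. Cacng8, an AMPA receptor partner prominent in hippocampus, had 13.7, 5.03 and 15.5 CPM in Piezo Gel+US, against 18.7, 9.27 and 12.8 CPM in Gel+US (log2 fold change -0.25 with a 95% interval of -1.37 to 0.86). Cacng5, a weaker AMPA receptor partner, had 5.34, 2.92 and 6.47 CPM in Piezo Gel+US, against 12.2, 1.78 and 7.17 CPM in Gel+US (log2 fold change -0.53 with a 95% interval of -2.13 to 1.08), so Gel+US held both its highest and its lowest library. Leaving out Gel+US replicate 1 gave 0.045 for Cacng8 and 0.13 for Cacng5. Leaving out Piezo Gel+US replicate 2 gave 0.096 for Cacng7 and 0.098 for Cacng8. Cacng7, Cacng8 and Cacng6 share 1 stretch from 177975088 to 178072140 and Cacng5, Cacng4 and Cacng1 another from 71215310 to 71427755 in the table's coordinates, and both stretches join an expressed brain form to a muscle form near 0.

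**Figure D4:**
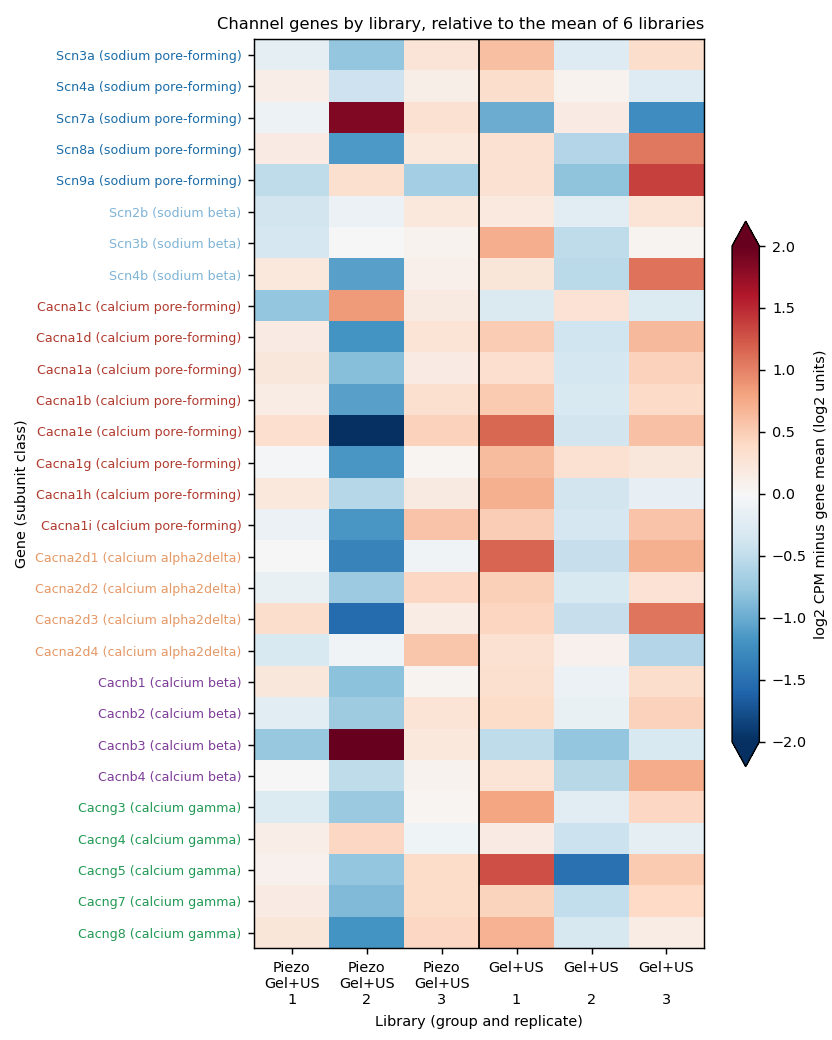
Log2 CPM of 29 of the 31 tested channel genes in each library minus the gene's mean over the 6 libraries, with Piezo Gel+US left of the line and Gel+US right of it (colour scale ends at 2 log2 units either way). Piezo Gel+US replicate 2 is blue for 19 members whose lowest level it holds and red for Scn7a, Cacnb3, Cacna1c and Cacng4, whose highest level it holds.

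The spread among members followed a few libraries. Piezo Gel+US replicate 2 was the lowest library for 19 of the 31 tested members, against 28.4% of all genes tested, and the highest for 4 (Scn7a, Cacna1c, Cacnb3 and Cacng4), against 29.2%. Gel+US replicate 1 was the highest for 13 of the 31, among them Cacna1e, Cacna1g, Cacna1h, Cacna2d1 and Cacng5, against 9.22% of all genes tested. Gel+US replicate 3 was the highest for 11 of the 31, among them Scn8a, Scn9a, Scn4b and Cacna2d3, against 24.4%. Leaving out Piezo Gel+US replicate 2 brought 27 of the 31 fold changes closer to 0 and the median to -0.16, with 22 below 0. Without Gel+US replicate 3 the median was -0.22 with 26 below 0, and without Gel+US replicate 1 it was -0.19 with 20 below 0.

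Marker genes of the cell types in the piece differed between the same libraries. Neuron, oligodendrocyte (10 of 10 matched) and astrocyte (9 of 10 matched) markers of the labelled cord tissue were present in every library, with oligodendrocyte sums of 9038 to 21381 CPM in Piezo Gel+US and 10948 to 20736 CPM in Gel+US. The summed level of 10 Schwann cell markers other than Scn7a was 33029, 30682 and 38362 CPM in Piezo Gel+US, against 27212, 18371 and 20912 CPM in Gel+US, and all 10 were detected. This sum is mostly Mbp, which oligodendrocytes also make, and the 9 markers without it summed to 1526, 8704 and 2853 CPM in Piezo Gel+US, against 1005, 1647 and 1389 CPM in Gel+US. Prx, a protein of the myelin made by Schwann cells and singled out after its values were seen, had 814, 5400 and 1403 CPM in Piezo Gel+US, against 489, 865 and 687 CPM in Gel+US. The highest library for Prx and the 9-marker sum was Piezo Gel+US replicate 2, as for Scn7a and Cacnb3. Of the 12 Schwann cell markers tested, Scn7a included, 11 had log2 fold changes above 0, with a median of 1.54. An unadjusted edgeR p below 0.05 was found for 6 of the 12, against 2.1% of all genes tested, and 0 were called after adjustment. Piezo Gel+US replicate 2 was the highest library for 9 of the 12, against 29.2% of all genes tested. The 20 neuron markers summed to 11596, 3622 and 6973 CPM in Piezo Gel+US, against 10339, 4221 and 21726 CPM in Gel+US. Piezo Gel+US replicate 2 had their lowest sum and Gel+US replicate 3 their highest, the libraries at the ends of the range for Scn8a, Scn4b and Cacna2d3. All 20 were detected and 19 of the 20 had log2 fold changes below 0, with a median of -0.48. Piezo Gel+US replicate 2 was the lowest library for 17 of the 20, against 28.4% of all genes tested. Neuron markers were not alone in this. The same library was lowest for 8 of 10 oligodendrocyte, 6 of 8 oligodendrocyte precursor, 7 of 9 astrocyte and 8 of 10 microglia and macrophage markers. It was lowest for 1 of 7 T cell, 0 of 12 Schwann cell and 0 of 10 fibroblast markers tested. The 10 fibroblast markers summed to 1139, 6048 and 1400 CPM in Piezo Gel+US, against 924, 6877 and 696 CPM in Gel+US, high in replicate 2 of both groups, as Cacna1c was. Smooth muscle and pericyte markers (8 of 8) summed to 754, 1082 and 846 CPM in Piezo Gel+US, against 1039, 1293 and 768 CPM in Gel+US. Skeletal muscle markers (11 matched of 14) summed to 33.4, 116 and 32.0 CPM in Piezo Gel+US, against 22.3, 36.3 and 23.5 CPM in Gel+US, with the highest sum in Piezo Gel+US replicate 2. In that library the muscle actin Acta1 had 72.1 CPM and the muscle creatine kinase Ckm 10.0 CPM, against 1.11 to 3.00 CPM and 0 to 0.333 CPM in the other 5, while myoglobin (Mb) had 0 counts in 5 libraries and 2 in Gel+US replicate 1. These 3 genes were singled out after their values were seen. The sensory ganglion markers other than Scn10a and Scn11a (8 matched) summed to 266, 75.6 and 78.2 CPM in Piezo Gel+US, against 208, 62.2 and 481 CPM in Gel+US. That sum was highest in Gel+US replicate 3, as Scn9a was, while Scn10a and Scn11a stayed at 0 to 10 counts. The match did not extend to the next library, which was Piezo Gel+US replicate 1 for the sum and Piezo Gel+US replicate 2 for Scn9a, at 22.9 CPM. The sum is mostly Prph, with 236, 44.4 and 45.6 CPM in Piezo Gel+US, against 157, 37.5 and 440 CPM in Gel+US. Of the 7 sensory ganglion markers tested, 4 were highest in Gel+US replicate 3, against 24.4% of all genes tested. Tac1 was highest in Gel+US replicate 1, at 38.2 CPM, against 14.0 CPM in Gel+US replicate 3. The part of these cell types in the channel values was not tested.

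**Figure D5:**
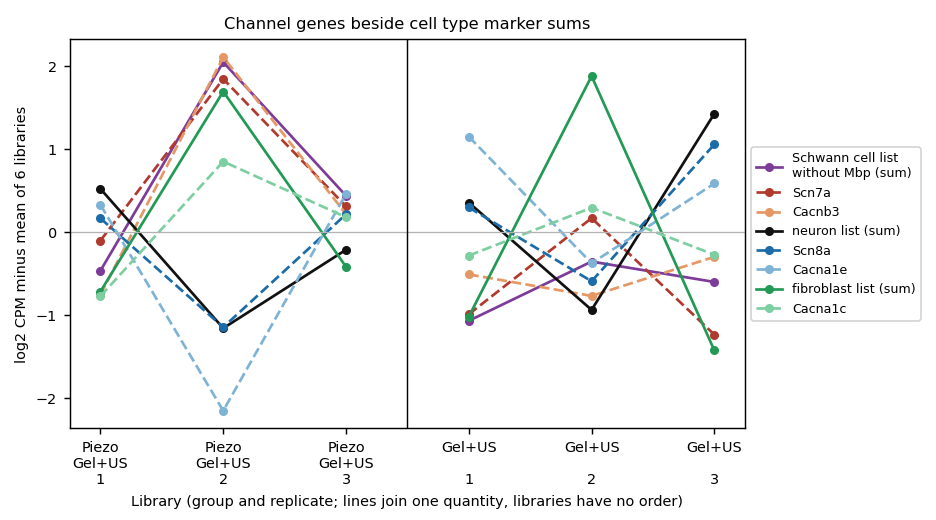
Log2 CPM minus the mean of the 6 libraries for 5 channel genes (dashed lines) and for the summed Schwann cell markers without Mbp, neuron markers and fibroblast markers (solid lines), Piezo Gel+US left of the line and Gel+US right of it. Scn7a and Cacnb3 peak with the Schwann cell sum in Piezo Gel+US replicate 2, Scn8a is lowest there and highest in Gel+US replicate 3 as the neuron sum is, and Cacna1e is lowest there and highest in Gel+US replicate 1.

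The ratio of channel genes to neuron markers varied mainly among libraries of the same group. The summed CPM of all members except Scn7a was 1322, 1041 and 1528 in Piezo Gel+US, against 1664, 1021 and 1803 in Gel+US. Divided by the neuron marker sum this gave 0.114, 0.287 and 0.219 in Piezo Gel+US, against 0.161, 0.242 and 0.0830 in Gel+US, so the ranges overlapped. The neuron marker sum, from 3622 to 21726 CPM, ranged more widely than the channel sum, so the ratio reflects its denominator in large part. Nefl alone had 489 CPM in Piezo Gel+US replicate 2 and 5658 CPM in Gel+US replicate 3. Snap25 had 360 and 1344 CPM there. With Scn7a the ratios were 0.155, 0.798 and 0.311 in Piezo Gel+US, against 0.186, 0.379 and 0.0930 in Gel+US. The ratio was highest in replicate 2 of both groups, where the neuron marker sum was lowest.

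Genes whose products bind or regulate these channels showed a like balance. Of 16 tested sodium channel partners 12 had log2 fold changes below 0 (median -0.35), and of 24 tested calcium channel partners 19 did (median -0.23), against 52.9% of all genes tested. No partner was called by edgeR after adjustment, and an unadjusted p below 0.05 was found for 2 sodium channel partners and 0 calcium channel partners, against 2.1% of all genes tested. The groups did not overlap on the lower side for 1 sodium and 1 calcium channel partner, against 2.73% of all genes tested. On the higher side they did not overlap for 2 sodium and 0 calcium channel partners, against 4.08%. The partners named next were picked by lowest p, a choice that favours groups without overlap. Pacsin3, an endocytic adaptor, had 52.8, 64.0 and 53.9 CPM in Piezo Gel+US, against 44.4, 35.7 and 36.0 CPM in Gel+US (log2 fold change 0.56 with a 95% interval of 0.15 to 0.97), and the groups did not overlap. Nedd4l, the ubiquitin ligase that removes sodium channels from the membrane, had 33.4, 25.6 and 31.2 CPM in Piezo Gel+US, against 39.3, 34.3 and 45.4 CPM in Gel+US (log2 fold change -0.40 with a 95% interval of -0.85 to 0.054), and the groups did not overlap. Among calcium channel partners those of lowest p were Erc2, a scaffold of the presynaptic active zone, at -0.64, Kcnma1, the calcium-activated potassium channel that sits beside calcium channels, at -0.82, and Slc8a1, the sodium-calcium exchanger, at -0.73. Leaving out 1 library gave values as close to 0 as -0.46 for Erc2, -0.46 for Kcnma1 and -0.40 for Slc8a1. The adjusted p of each of these 5 genes was 0.994.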

How the data were processed

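The values are raw counts per gene in 6 libraries, deposited by the authors as 1 table. Per the labels' protocols, polyadenylated RNA was sequenced from strand-preserving libraries. Per the submitters' processing notes, the tools were DESeq2 1.20.0, featureCounts 1.5.0-p3, HISAT2 2.0.5 and fastp 0.19.7, with no role stated for each. Build and strand setting are not given in the sources used here. A gene length in bases, deposited by the authors beside the counts, was used for TPM.

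Groups were assigned by label and compared with edgeR 4.0.16 in R 4.3.3 by the robust quasi-likelihood F test on counts, with trimmed mean of M-values (TMM) factors and the default low-count filter (minimum count 10, minimum total 15). P-values were adjusted over the 17066 genes tested and called below 0.05. CPM uses the TMM-scaled library size. Intervals come from the same fit. Log2 fold changes are Piezo Gel+US over Gel+US. The common biological coefficient of variation was 0.382. The test was checked on simulated counts, where it called 72.2% of changes of 2 log2 units and 100% of changes of 4. Smaller changes, as all those of the members were, and single deviating libraries were not simulated.

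The labels number biological replicates, and p-values test the group difference against the spread between these samples. Deviations from group means correlated at 0.253, 0.296 and 0.251 between libraries of equal number and each was above 0.1. The printed intervals and p-values come from the fit without pairs unless the block is named. The labels do not say what a number shares, and Piezo Gel+US replicate 3 correlated at 0.198 with Gel+US replicate 1.

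Of the members 2 are counted but not reported by name here, and a few other genes are also not reported here. All other members are named. Members averaging at least 5 CPM, or with an unadjusted p below 0.1, have values per library, and the partners named are among the 3 of lowest p per list. The members and lists were chosen with earlier results of these data known. Alternatives were DESeq2 1.42.0, limma-voom 3.58.1 with quality weights, other scalings and filters, the replicate block and leaving out each library.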

Additional observations from a re-analysis of the deposited data

How the results depend on the processing

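The values of Scn4a and Cacna2d4 rest on few counts. No gene, member or partner was called by edgeR, DESeq2 or limma-voom, in the block fit, or with any 1 library left out. Genes at an unadjusted p below 0.05 numbered 359, and 652 by DESeq2, 2390 by limma-voom, 986 with the replicate block, and 141 to 775 with 1 library left out. Members at that level numbered 0, and 3 by DESeq2, 8 by limma-voom, 1 without the low-count filter, 8 with the replicate block, and 0 to 5 with 1 library left out. Members with a fold change above 0 numbered 6, and 4 to 11 with 1 library left out. The median member fold change ran from -0.58 to -0.16 over those fits. The cause of these shifts was not tested. Over 13 alternatives for the 29 named members tested, 2 rows listed by locus number and 5 partners, 451 of 467 fold changes kept their direction. With limma-voom the value was -0.015 for Cacna2d4, -0.10 for Cacng4 and 0.013 for LOC116901467. With 1 library left out the values ran from -0.25 to 0.059 for Scn4a, -0.51 to 0.12 for Scn3b, -0.17 to 0.59 for Cacna1c, -0.36 to 0.24 for Cacna1h, -0.16 to 0.33 for Cacna2d4, -0.99 to 0.13 for Cacng5, -0.45 to 0.096 for Cacng7, -0.54 to 0.098 for Cacng8 and -0.89 to 0.15 for LOC116901467. The block fit changed no call after adjustment.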
